A study of Mus musculus with 18 samples.

Results

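Of 14377 genomic sites bound by the transcription factors EBF1, PAX5 or both, 718 (4.99%) had more accessible chromatin in pro-B cells lacking EBF1 or PAX5 than in wild-type (WT) cells. Of these, 492 sites were more open in Ebf1-deficient cells (Ebf1-KO; 3.42% of all sites) and 348 in Pax5-deficient cells (Pax5-KO; 2.42%). The 122 sites in both lists were 24.8% of the Ebf1-KO list and 35.1% of the Pax5-KO list. A site entered a list when the lowest of its 3 knockout library values was above the highest of its 3 WT values and its ratio, (knockout mean + 0.5) / (WT mean + 0.5), was at least 1.5. A value is the number of ATAC tags in the site per 10 M tags of the library (M, 1e6). Without the requirement on the ratio, Ebf1-KO lay wholly above WT at 4.42% of all sites, and Pax5-KO at 2.96%. Because these values chose the sites, their accessibility relative to WT is given as a description and with no test. Both lists were set against the same 3 WT libraries.

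The cells were Ebf1 knock out, Pax5 knock out and wild-type pro-B cells grown from fetal liver of C57BL6/J mice. All 3 genotypes were expanded on a layer of OP9 stromal cells with interleukin-7 and the ligands of KIT and FLT3, and each gave 3 ATAC and 3 RNA libraries. The labels call the fetuses deficient and name no Cre or promoter, and they do not say whether libraries of a genotype came from separate cultures, so RNA p-values below measure the spread between these libraries. ATAC libraries held 15.3 to 38.6 M tags, and RNA libraries an estimated 27.3 to 89.1 M mapped reads. Summed over 8 pro-B genes (Cd79a, Cd79b, Igll1, Vpreb1, Ebf1, Pax5, Rag1 and Il7r), RNA was 3754 to 3791 reads per 10 M in Ebf1-KO, 8333 to 11940 in Pax5-KO and 21020 to 21960 in WT. Pax5 RNA was 98.6 to 129 in Pax5-KO and 1314 to 1629 in WT, while Ebf1 RNA was 1345 to 1605 in Ebf1-KO and 3252 to 4454 in WT, so transcripts of the targeted Ebf1 gene were still counted. Xist RNA was 41000 to 47900 in Ebf1-KO, 1.58 to 42.8 in Pax5-KO and 15.4 to 37.3 in WT, and the Y-linked Ddx3y was 0.517 to 2.75 in Ebf1-KO, 714 to 1080 in Pax5-KO and 611 to 745 in WT. Every Ebf1-KO RNA library thus differed from every Pax5-KO and WT library in these sex-linked transcripts. In RNA comparisons of Ebf1-KO with WT or Pax5-KO, sex and genotype cannot be told apart, for genes on any chromosome. Whether the ATAC libraries differed in the same way was not tested. On chromosome X lay 2 sites of each list, and on chromosome Y lay 0 sites, a count that does not bear on the other chromosomes. In cell populations of this kind, a site open in fewer cells and a site less open in each cell cannot be told apart, nor can fewer cells of a type and less RNA per cell.

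EBF1 and PAX5 act in sequence in early B-cell development: EBF1 opens chromatin at B-lineage genes and activates Pax5, and PAX5 then maintains B-cell commitment. Each also represses genes of other blood lineages, and lymphoid progenitors that lack PAX5 keep the capacity to form T, natural killer and myeloid cells. ATAC-seq reads out where the transposase Tn5 can enter chromatin, which is mostly at active promoters and enhancers.

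The sequences below are the central 200 bases, on the forward strand of mm10 (RefSeq), of the 3 sites with the largest ratio in Ebf1-KO and of 3 further sites among the 6 with the largest ratio in Pax5-KO. They are shown because they are among the sites that differ most between knockout and WT. The Mir1901 site, with ratios of 10.97 in Ebf1-KO cells and 7.08 in Pax5-KO, ranks among them too, and its sequence is not shown. Capitals mark matches, on either strand, to the EBF1 core (CCCNNGGG), the PAX5 letters GCGTGAC, the PU.1 letters GAGGAAGT and the RUNX letters TGTGGTT.
Mrgpra1, chr7:47346103-47346302: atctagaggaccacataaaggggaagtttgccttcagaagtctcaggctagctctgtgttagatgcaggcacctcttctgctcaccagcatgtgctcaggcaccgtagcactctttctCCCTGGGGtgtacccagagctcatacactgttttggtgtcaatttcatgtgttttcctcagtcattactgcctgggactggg
Rin3, chr12:102302424-102302623: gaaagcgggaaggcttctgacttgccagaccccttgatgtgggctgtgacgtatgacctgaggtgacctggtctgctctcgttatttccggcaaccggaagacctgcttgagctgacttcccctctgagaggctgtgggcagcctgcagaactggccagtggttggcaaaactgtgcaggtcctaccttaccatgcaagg
Cdh26, chr2:178506129-178506328: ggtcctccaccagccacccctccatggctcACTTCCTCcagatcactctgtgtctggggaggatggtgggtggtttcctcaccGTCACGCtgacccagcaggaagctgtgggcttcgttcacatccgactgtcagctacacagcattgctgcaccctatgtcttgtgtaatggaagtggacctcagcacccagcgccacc
Utp6, chr11:79922140-79922339: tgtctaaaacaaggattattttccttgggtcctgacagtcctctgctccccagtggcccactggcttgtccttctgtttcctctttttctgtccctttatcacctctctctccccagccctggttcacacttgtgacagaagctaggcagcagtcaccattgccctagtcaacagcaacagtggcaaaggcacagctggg
Tex29, chr8:12048306-12048505: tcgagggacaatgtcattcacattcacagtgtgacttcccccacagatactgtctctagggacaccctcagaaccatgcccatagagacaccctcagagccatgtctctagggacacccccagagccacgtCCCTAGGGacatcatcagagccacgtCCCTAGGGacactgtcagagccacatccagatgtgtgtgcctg
Map4k3, chr17:80762488-80762687: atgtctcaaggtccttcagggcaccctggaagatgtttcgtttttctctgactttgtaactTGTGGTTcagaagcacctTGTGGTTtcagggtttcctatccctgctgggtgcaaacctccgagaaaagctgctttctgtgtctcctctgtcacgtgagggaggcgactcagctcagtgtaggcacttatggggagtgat
The Mrgpra1 window held an EBF1 core although the site was listed as bound by PAX5 only. The Cdh26 window held a PU.1 match and a PAX5 match, the Map4k3 window held 2 RUNX matches, and the Tex29 window held 2 EBF1 cores. The Rin3 and Utp6 windows held no match to these 4 motifs, which says only that these letters were not in these windows.

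The sites of the 2 lists came from different classes of bound site. In Ebf1-KO, 303 of the 492 sites (61.6%) were bound by PAX5 only, 152 (30.9%) by EBF1 only and 37 (7.52%) by both factors. In Pax5-KO, 231 of the 348 sites (66.4%) were bound by EBF1 only, 98 (28.2%) by PAX5 only and 19 (5.46%) by both. Over all bound sites, 35% were PAX5-only, 54.4% EBF1-only and 10.6% bound by both. As a share of each class, 6.02% of PAX5-only sites were more open in Ebf1-KO, against 1.94% of EBF1-only sites and 2.42% of sites bound by both. In Pax5-KO the shares were 2.96% of EBF1-only sites, 1.95% of PAX5-only sites and 1.24% of sites bound by both. Most sites of each list were thus listed as bound only by the factor whose gene was not the one deleted. RNA of that factor was nevertheless below WT in each knockout. Pax5 RNA in Ebf1-KO was 8.53, 15.02 and 15.69 reads per 10 M. Ebf1 RNA in Pax5-KO was 1328.5, 1555.7 and 1661, against 3252 to 4454 in WT. The 226 sites more open in Pax5-KO alone were 83.6% EBF1-only, while the 122 sites of both lists were 59% PAX5-only and 34.4% EBF1-only.

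**Figure D1:**
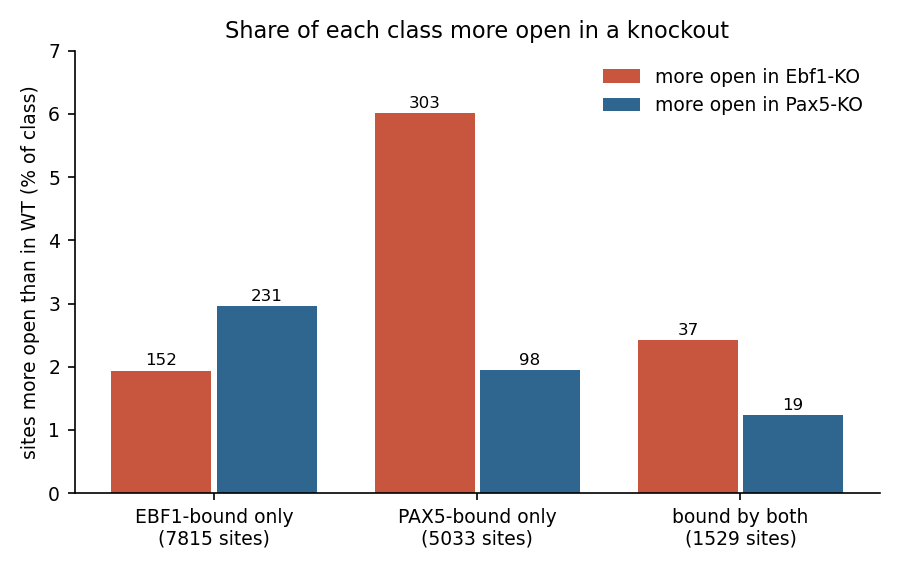
Share of each class of bound site that was more open in Ebf1-KO (red) and in Pax5-KO (blue) than in WT, in percent of the class; the number on each bar counts the sites. The tallest bar is the 6.02% of PAX5-only sites that were more open in Ebf1-KO.

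The class pattern of the Ebf1-KO list depended on how the libraries were scaled. The share of all tags that fell in bound sites was 0.931 to 1.11% in Ebf1-KO, 0.825 to 1.02% in Pax5-KO and 1.52 to 2.31% in WT, so the authors' scaling to total tags and a scaling to the bound sites themselves differ. With TMM factors computed over all bound sites, the rule gave 2905 sites in Ebf1-KO cells and 2356 in Pax5-KO, and these held 100% of the sites described here. Scaling to the bound sites raises knockout values relative to WT, so the 100% follows from the scaling and is no check on the lists. The Ebf1-KO shares were then 20.4% of PAX5-only and 21.3% of EBF1-only sites, with no excess of PAX5-only sites. The Pax5-KO shares were 11.3% of PAX5-only and 20.8% of EBF1-only sites. The 718 sites are therefore those that were higher in a knockout even per total tag.

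The rule places each knockout library above every WT library at each site, and the levels that follow describe the size of the gap. The median signal of the 492 Ebf1-KO sites was 13.6, 14.8 and 16.3 in the 3 Ebf1-KO libraries, 8.82, 7.95 and 7.38 in Pax5-KO, and 6.53, 5.7 and 6.21 in WT. The 348 Pax5-KO sites were weaker. Their median was 8.11, 6.63 and 6.95 in Pax5-KO, 3.31, 3.48 and 2.88 in Ebf1-KO, and 2.61, 2.85 and 3.11 in WT. Over all 14377 sites the median of the group means was 2.84 in Ebf1-KO cells, 3.78 in Pax5-KO and 8.83 in WT, so the bound sites as a whole went the other way. The Ebf1-KO sites received 9.29 to 9.54% of the tags over all bound sites in Ebf1-KO and 2.11 to 2.32% in WT. The Pax5-KO sites received 3.35 to 3.48% in Pax5-KO and 0.633 to 0.801% in WT. The median ratio was 2.02 in the Ebf1-KO list (highest 14.5) and 2.00 in the Pax5-KO list (highest 7.33). A median Ebf1-KO site rested on 136 tags over the 3 Ebf1-KO libraries and 53 over the 3 WT libraries, and a median Pax5-KO site on 65 and 28, so the sites of the Pax5-KO list are the less precisely measured.

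**Figure D2:**
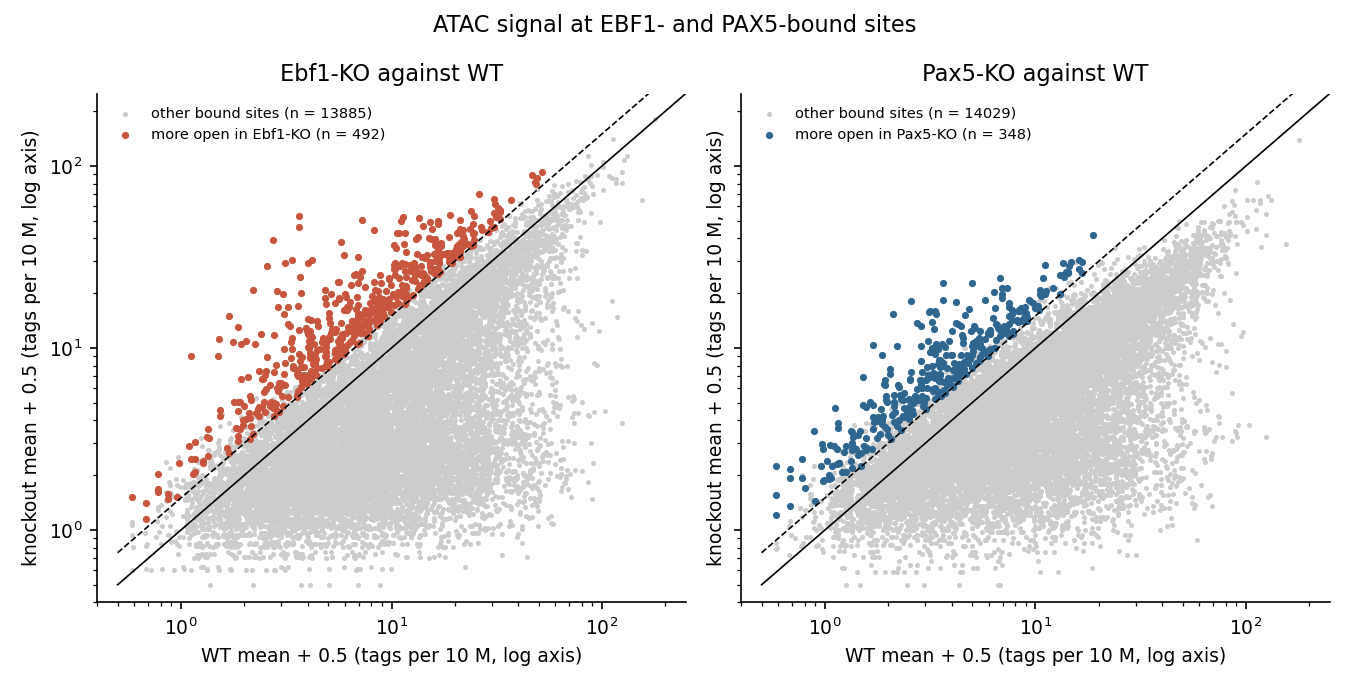
Mean ATAC signal + 0.5 of each bound site in the knockout (vertical) against WT (horizontal), in tags per 10 M on log axes, for Ebf1-KO (left) and Pax5-KO (right). Coloured points are the 492 and 348 sites more open in the knockout; the solid line marks equal values, the dashed line a ratio of 1.5, and most grey points lie below the solid line.

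Each library was also left out of the choice in turn. The other group's 3 libraries still took part in the choice, which lifts the shares given here, so they are a description with no test. When sites were chosen on 2 Ebf1-KO libraries and the 3 WT libraries, 80.2, 82.7 and 86.5% of them were also above every WT library in the Ebf1-KO library left out (replicates 1, 2 and 3), against 8.4, 9.1 and 11% of all sites. For Pax5-KO the shares were 80, 75.7 and 72%, against 9.55, 7.26 and 7.92% of all sites. Leaving out a WT library, the left-out library lay below every knockout library at 71.9, 84.6 and 81.8% of the sites chosen for Ebf1-KO, against 8.98, 15.8 and 9.56% of all sites. For Pax5-KO these shares were 66.1, 76.6 and 70.1%, against 8.42, 11.7 and 8.02%. At the edge of the rule, a member just above a ratio of 1.5 in Ebf1-KO was a site annotated to E2f6 (1.5008), and the nearest sites outside were annotated to Nudt1 (1.4972) and 4930559C10Rik (1.4966). In Pax5-KO the nearest sites were Csrnp1 (1.5) and 1600014C23Rik (1.5045) inside, and Atp6v0a4 (1.4934) and Gm29684 (1.4894) outside.

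The sites lay mostly away from promoters. Promoters held 27 of the 492 Ebf1-KO sites (5.49%) and 13 of the 348 Pax5-KO sites (3.74%), against 12.6% of all bound sites. Introns held 47.4% of either list and intergenic DNA 42.5 and 43.1%, against 42.7 and 39.1% of all sites. The median distance to the nearest start site was 19.7 kb in the Ebf1-KO list, 22.5 kb in the Pax5-KO list and 16.9 kb over all sites. The authors' ChIP peak score was lower in the lists than in their class as a whole. Among EBF1-only sites its median was 8.905 for the Ebf1-KO list and 10.3 for the Pax5-KO list, against 11.3 for the class, and among PAX5-only sites it was 44.3 and 41.3, against 52.7. In the central 200 bases the median GC content was 52% and 52.5% in the lists and 50.5% over all sites. The windows of the lists held on average 3.95 and 2.84 CpG dinucleotides, against 4.41 over all sites. The next values are for sites whose mean in the same knockout was at least 10. Of the lists, 340 and 117 sites reached that level in the knockout, and 152 and 24 reached it in WT. Many list sites thus passed only in the knockout where they were high, which can shape the gaps given here. The average number of CpG dinucleotides was 4.17 and 2.89 in the lists and 8.99 and 8.2 in other bound sites. The gap at that level was smaller within the PAX5-only class, at 3.52 and 3.05 in the lists and 4.38 and 4.49 in other sites. Within the EBF1-only class it was 5.55 and 2.58 in the lists and 12.4 and 10.8 in other sites. The median GC content of these EBF1-only sites was 54.5% and 55% in the lists and 60% and 59% in other sites.

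Of 15 motifs searched as exact letters on both strands, RUNX and the EBF1 core are described first. RUNX proteins are required in hematopoietic progenitors and in T cells as well as in B cells. The RUNX letters TGTGGTT were in 29.3% of Ebf1-KO windows and 19% of Pax5-KO windows, against 12.2% of the 14372 windows that could be read. Within the PAX5-only class they were in 108 of 303 Ebf1-KO sites (35.6%) and 32 of 98 Pax5-KO sites (32.7%), against 17.2% of the class. Other PAX5-only sites with a knockout mean of at least 10 also held them often. Of the lists, 340 and 117 sites reached that level in the knockout, and 152 and 24 reached it in WT, so many did so only where they were high. At that level the share was 40.1% in the Ebf1-KO list and 31.9% in other sites, and 43.9% in the Pax5-KO list and 30.8% in other sites. The other sites are those that did not meet the rule, and some of them were also above WT.

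The EBF1 core was more frequent in the Pax5-KO list. It was in 152 of the 231 EBF1-only sites of the Pax5-KO list (65.8%), against 53.6% of the class, and in 44.1% of the EBF1-only sites of the Ebf1-KO list. Among EBF1-only sites with a knockout mean of at least 10 it was in 66.2% of the Pax5-KO list and 39.7% of other sites. For the Ebf1-KO list it was in 38.3%, and in 34.7% of other sites. These other EBF1-only sites were richer in GC and CpG than the lists, as given above, and the part of base composition was not tested. The longer form (TCCCNNGGG), which overlaps the core, was in 62.8% of the EBF1-only sites of the Pax5-KO list and 36.2% of those of the Ebf1-KO list, against 49% of the class. The GATA letters AGATAA were in 3.86% and 4.31% of the lists, against 7.48% of all sites. At a knockout mean of at least 10 they were in 3.82% and 1.71% of the lists, against 5.76% and 4.96% of other sites. Among EBF1-only sites at that level they were in 4.26% of the Ebf1-KO list and 4.31% of other sites. The PU.1 letters were in 8.74% and 3.74% of the lists, against 4.93% of all sites, and this order changed with class and level. Among PAX5-only sites with a knockout mean of at least 10 they were in 10.4% of the Ebf1-KO list and 12.2% of other sites, and in 3 of 41 sites of the Pax5-KO list (7.32%) and 14% of other sites. Among EBF1-only sites at that level they were in 9.57% of the Ebf1-KO list and 4.5% of other sites, and in 6.15% of the Pax5-KO list and 4.79% of other sites. The other motifs searched were ETS (CCGGAAGT), TCF/LEF (CTTTGAT), an E-box (CAGCTG), another E-box (CAGGTG), AP-1 (TGANTCA), C/EBP (TTGCNNAA), IRF (GAAANNGAA), ETS-IRF (GGAANNGAA), CTCF (CTNGTGGC) and PAX5 (GCGTGAC). The E-box with GG was in 18.9% and 18.7% of the lists and 19.7% of all sites, but its share differed by class. Among EBF1-only sites it was in 11.2% and 11.3% of the lists, against 17.2% of the class. Among PAX5-only sites it was in 22.4% and 31.6%, against 21.8%. At a knockout mean of at least 10, AP-1 was in 9.12% and 9.4% of the lists, against 5.32% and 4.92% of other sites, and this too differed by class. Among EBF1-only sites it was in 9.57% and 12.3% of the lists, against 3.55% and 3.77% of other sites. Among PAX5-only sites it was in 9.91% of the Ebf1-KO list and 8.1% of other sites. For Pax5-KO it was in 1 of 41 PAX5-only sites of the list (2.44%) and 7.91% of other sites. ETS at that level was in 1.18% and 0%, against 4.37% and 3.74%. A match is a stretch of letters and not a measured binding site.

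**Figure D3:**
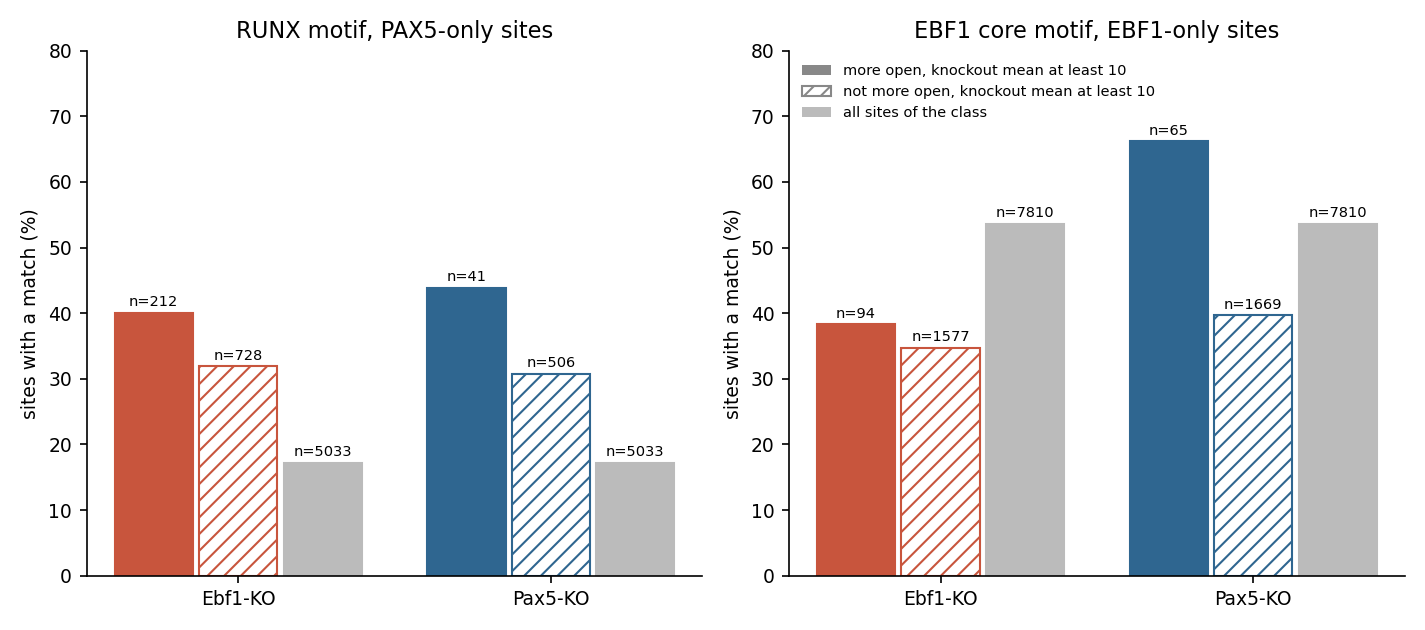
Percent of windows with a match to the RUNX motif in PAX5-only sites (left) and to the EBF1 core in EBF1-only sites (right), by knockout. Filled bars are sites more open with a knockout mean of at least 10, hatched bars are other sites at that level, and grey bars are the whole class; the EBF1 core reached 66.2% in the Pax5-KO list, against 39.7% of other sites at that level.

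The sites with the largest ratios were nearly closed in WT and open in both knockouts. In the site in an intron near Mrgpra1 (chr7:47346078-47346326, mm10, PAX5-only, 8.04 kb from the start site), the signal was 49.8, 47.8 and 59.2 in Ebf1-KO cells, 26.8, 21.7 and 18.2 in Pax5-KO, and 1.96, 2.28 and 5.18 in WT. No knockout library came near the WT libraries, and the ratio was 14.5 in Ebf1-KO cells and 6.25 in Pax5-KO. In an intron of Rin3 (chr12:102302399-102302647, PAX5-only), which encodes a guanine nucleotide exchange factor for Rab5 GTPases, it was 36.6, 37.2 and 42.2 in Ebf1-KO cells, 14.1, 13.2 and 12.2 in Pax5-KO, and 3.27, 1.14 and 2.33 in WT. At the intergenic site annotated to the cadherin gene Cdh26 (chr2:178506104-178506352, PAX5-only, 75.7 kb away), it was 40.5, 42.96 and 53.8 in Ebf1-KO cells, 23.3, 18.02 and 12.2 in Pax5-KO, and 4.57, 2.28 and 2.59 in WT. At all 3 sites the Ebf1-KO libraries were the highest and the WT libraries the lowest, with no overlap between the 3 genotypes.

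The next sites had the same order. The site annotated to Map4k3, a gene of the MAP4K kinase family (chr17:80762463-80762711, PAX5-only, 34.6 kb upstream), had 26.9, 26.3 and 33.3 in Ebf1-KO cells, 20.1, 14.6 and 10.9 in Pax5-KO, and 1.96, 2.28 and 3.63 in WT. The Mir1901 site on chromosome 18 had 21.4, 28.1 and 33.6 in Ebf1-KO cells, 19.8, 16.4 and 16.9 in Pax5-KO, and 3.27, 1.14 and 1.81 in WT. An intronic site 89.4 kb from the start of Nfatc2 (chr2:168500862-168501110, PAX5-only), the gene of a calcineurin-dependent factor of T cells, had 21.8, 21.5 and 17.3 in Ebf1-KO cells, 11.3, 10.1 and 7.82 in Pax5-KO, and 0.65, 3.13 and 1.29 in WT. These 6 sites were all PAX5-only and all in both lists, against 61.6% and 24.8% of the whole Ebf1-KO list. A ranking by ratio favours low WT values, and both lists used the same 3 WT libraries. The count is therefore a description of the sites ranked highest.

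Among the sites of largest ratio in Pax5-KO, 2 EBF1-only sites stood apart from this pattern. The intergenic site annotated to Utp6, a gene of ribosomal RNA processing (chr11:79922104-79922374, 40.1 kb away), had 16.9, 14.3 and 13.5 in Pax5-KO and 1.31, 1.42 and 2.07 in WT. It was low in Ebf1-KO, at 2.34, 5.14 and 4.16, though still above WT. The site annotated to Tex29 (chr8:12048270-12048540, 208 kb away) had 19.4, 14.6 and 12.2 in Pax5-KO and 3.27, 3.42 and 1.29 in WT. In Ebf1-KO it was at 0.78, 2.12 and 0.64, so its high signal was found in Pax5-KO libraries among these 9. Over all 226 sites that were in the Pax5-KO list alone, the median of the group means was 6.15 in Pax5-KO, 2.25 in Ebf1-KO and 2.82 in WT.

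**Figure D4:**
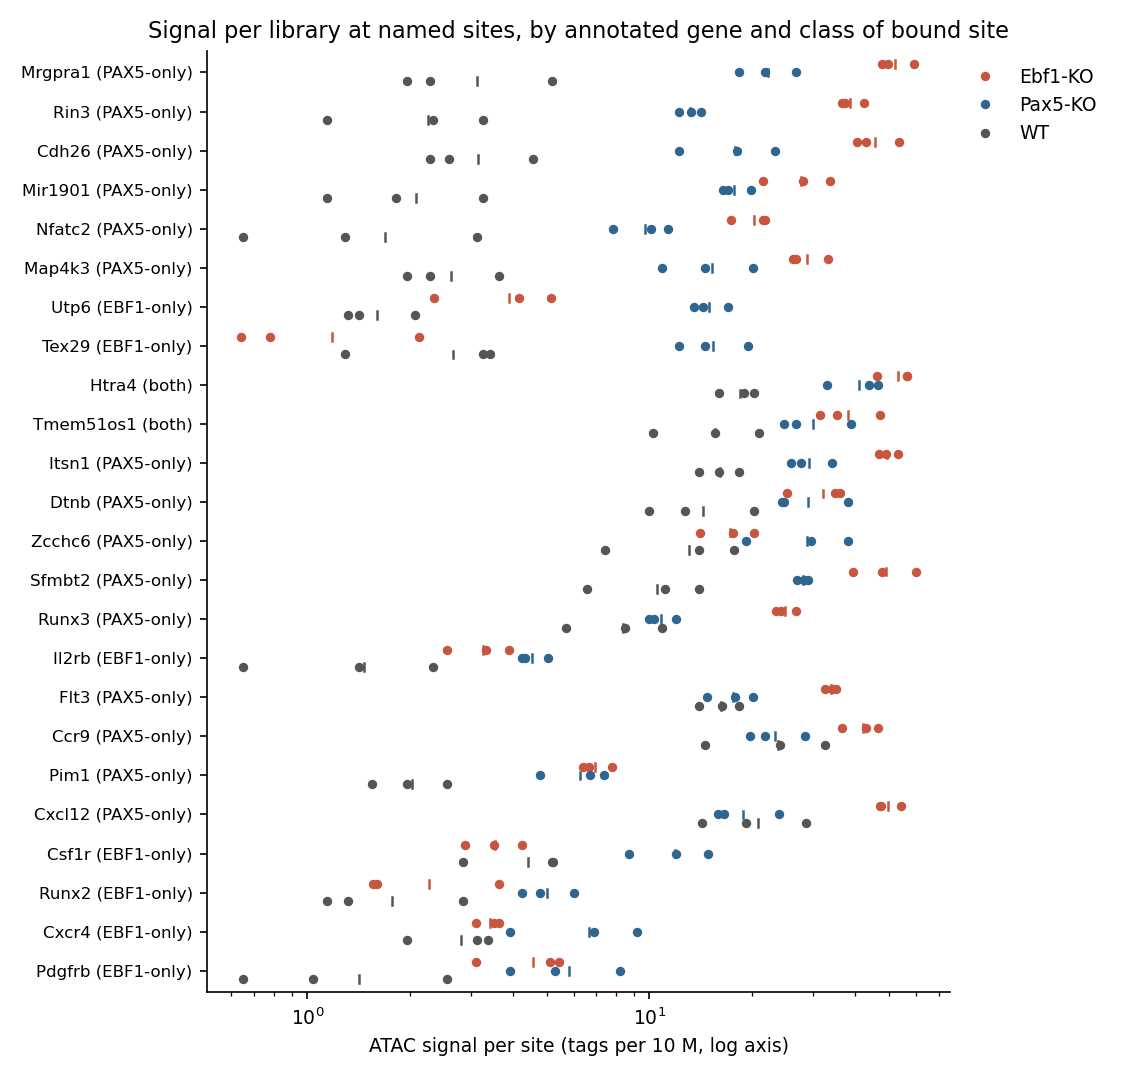
ATAC signal of each library (points) and group mean (ticks), in tags per 10 M on a log axis, at named sites; each row is a site with its annotated gene and class, with Ebf1-KO (red) above Pax5-KO (blue) and WT (grey). The upper rows have all knockout points to the right of WT, and the Utp6 and Tex29 rows have high points in Pax5-KO.

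The sites with the highest signal had smaller ratios. In Ebf1-KO the highest was an EBF1-only site 32.5 kb from Gm10416 (chr5:109866498-109866768), with 81.8, 94.4 and 101 in Ebf1-KO and 55.5, 37.6 and 60.3 in WT, a ratio of 1.80. The promoters of 4732416N19Rik and Amn1, an intron site near Pla2g4c and an intron site near Mir7659 followed, with ratios of 1.92, 1.76, 1.70 and 1.64. These 5 sites did not exceed WT by the rule in Pax5-KO, where their ratios were 0.708 to 0.989. The next was a PAX5-only site 81.4 kb upstream of Rgs1 (chr1:144330421-144330669), a regulator of G-protein signalling in lymphocytes, with 60.8, 61.1 and 86.1 in Ebf1-KO cells, 27.5, 22 and 13.5 in Pax5-KO, and 32.01, 17.95 and 26.7 in WT. In Pax5-KO the highest sites were near Htra4 (46.6, 43.7 and 33.0 in Pax5-KO, against 20.2, 15.95 and 18.9 in WT), Tmem51os1, Itsn1, Dtnb, Zcchc6 and Sfmbt2, with ratios of 1.80 to 2.59. Of these 6 sites, all but the Zcchc6 site were also in the Ebf1-KO list.

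The genes with most sites in a list were few. In Ebf1-KO, Mta3 (a subunit of the NuRD chromatin complex), Itga9 (integrin alpha 9) and Rplp1 (a ribosomal protein) had 3 sites each, and 19 genes had 2, among them Amn1. At the Mta3 promoter the signal was 12.8, 20.9 and 16.3 in Ebf1-KO cells, 19.8, 12.5 and 16.1 in Pax5-KO, and 11.1, 7.41 and 5.70 in WT, and that site was in both lists. The Amn1 site 4.83 kb upstream had 44, 46.3 and 59.5 in Ebf1-KO cells, 14.5, 14.05 and 5.65 in Pax5-KO, and 7.84, 7.12 and 5.18 in WT. In Pax5-KO, Itga9 had 3 sites and 12 genes had 2, among them Zmiz1 (a transcriptional coactivator), Neurl1b (an E3 ubiquitin ligase of Notch ligands) and Egln3 (a prolyl hydroxylase). The Itga9 intron site at chr9:118750845-118751093 had 7.40, 11.8 and 18.6 in Ebf1-KO cells, 12.7, 8.48 and 4.78 in Pax5-KO, and 1.96, 0.57 and 1.55 in WT. Sites annotated to the same gene share that gene's RNA and do not count as separate evidence on it.

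No gene of the B-lineage lists had a site that was more open. The lists of pre-B receptor genes, B-lineage transcription factors and V(D)J recombination genes held 51 genes, of which 44 had 159 bound sites, and 0 of these were in either list (background 3.42% and 2.42%). Their sites had a median of 2.61 in Ebf1-KO cells, 3.52 in Pax5-KO and 13.1 in WT. The 6 lists of other lineages held 100 genes, of which 50 had 115 bound sites, with 6 sites (5.22%) in the Ebf1-KO list and 5 (4.35%) in the Pax5-KO list. Most sites of those genes were lower in the knockouts too, with median ratios of 0.537 in Ebf1-KO cells and 0.555 in Pax5-KO.

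The member sites of other lineages were few and often weak. At Runx3, a factor of CD8 T and natural killer cells, the intron site (chr4:135131200-135131448, PAX5-only) had 23.4, 24.2 and 26.9 in Ebf1-KO cells, 11.99, 10.3 and 9.99 in Pax5-KO, and 8.49, 5.70 and 10.9 in WT. In an intron of Flt3, the receptor of lymphoid progenitors (chr5:147366455-147366703, PAX5-only), it was 34.3, 35.1 and 32.7 in Ebf1-KO cells, 20.1, 17.8 and 14.8 in Pax5-KO, and 18.3, 13.96 and 16.3 in WT. The site 12.6 kb upstream of Ccr9, a chemokine receptor of thymus-homing and dendritic cells (chr9:123754452-123754700, PAX5-only), had 42.8, 36.6 and 46.4 in Ebf1-KO cells, 28.6, 19.6 and 21.7 in Pax5-KO, and 32.7, 14.5 and 24.1 in WT. At all 3 sites Ebf1-KO stood above WT, and Pax5-KO overlapped WT.

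At the promoter of Il2rb, the interleukin-2 and interleukin-15 receptor beta chain (chr15:78494851-78495121, EBF1-only), the signal was 3.89, 3.33 and 2.56 in Ebf1-KO cells, 4.23, 5.04 and 4.34 in Pax5-KO, and 0.65, 1.42 and 2.33 in WT, a low site in both lists. The site near Pim1, a kinase gene induced by cytokines (chr17:29510801-29511049, PAX5-only), had 7.79, 6.66 and 6.40 in Ebf1-KO cells, 6.70, 4.77 and 7.38 in Pax5-KO, and 1.96, 2.56 and 1.55 in WT. Of 11 bound sites of the myeloid list, 2 were in the Pax5-KO list (Csf1r and Cebpb) and 0 in the Ebf1-KO list. Csf1r encodes the receptor of macrophage colony-stimulating factor. The site 13.5 kb upstream of it had 11.99, 14.8 and 8.69 in Pax5-KO, against 5.23, 2.85 and 5.18 in WT. Its values in Ebf1-KO were 3.5, 4.24 and 2.88. The neighbouring Pdgfrb, a receptor of the stroma list, had a site with 3.12, 5.45 and 5.12 in Ebf1-KO cells, 5.29, 8.22 and 3.91 in Pax5-KO, and 0.65, 2.56 and 1.04 in WT. Of these, Pim1 belongs to a list of interleukin-7, KIT and FLT3 signalling and Pdgfrb to the stroma list, and neither counts among the sites of other lineages.

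The remaining lineage sites were Gata3 and Hoxa7 in Ebf1-KO, and Prf1, Cebpb and Runx2 in Pax5-KO. The site annotated to Gata3, a T-lineage factor, lay 291 kb away and had 4.67, 1.82 and 2.88 in Ebf1-KO cells, 1.06, 0.8 and 0.87 in Pax5-KO, and 1.31, 1.14 and 1.55 in WT. The site 3.31 kb upstream of Hoxa7, a homeobox gene of progenitors, had 13.2, 17.9 and 18.9 in Ebf1-KO cells, 7.05, 8.75 and 6.08 in Pax5-KO, and 13.1, 9.12 and 7.25 in WT. Cebpb encodes a myeloid factor, and its site had 10.2, 6.63 and 6.95 in Pax5-KO and 4.57, 6.27 and 3.88 in WT. The site annotated to Runx2, 246 kb away, had 6, 4.24 and 4.78 in Pax5-KO and 1.31, 1.14 and 2.85 in WT. Several of these groups were separated by less than 1 tag per 10 M, as at Hoxa7 and Cebpb. From the list of adhesion and homing receptors came Itgb7 in Ebf1-KO (7.01, 5.75 and 6.72, against 2.61, 2.85 and 3.88 in WT) and Cxcr4 in Pax5-KO (9.17, 6.89 and 3.91, against 1.96, 3.13 and 3.37 in WT).

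RNA was not used to choose the sites and was tested across all genes with limma on log2(value + 1). Of 12839 genes tested, 5240 (40.8%) were called higher and 1855 (14.4%) lower in Ebf1-KO than in WT, and 4451 (34.7%) higher and 1525 (11.9%) lower in Pax5-KO, at an adjusted p under 0.05. With TMM scaling the shares were 30% higher and 28.1% lower in Ebf1-KO cells, and 25.9% and 24% in Pax5-KO. The median gene shifted by 0.31 (log2) in Ebf1-KO cells and 0.28 in Pax5-KO, and each RNA log2 fold change below is given less this shift, although calls and p-values test the change before it.

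Genes nearest to the more open sites were more often higher in RNA than the background. Of the 492 Ebf1-KO sites, the annotated genes in the RNA table numbered 459, of which 330 were tested, and 176 of these (53.3%) were called higher and 50 (15.2%) lower in Ebf1-KO. Over the genes of all bound sites the shares were 40.9% higher and 19.1% lower of 5758 tested. For the Pax5-KO list 231 of 329 genes were tested, and 127 (55%) were higher and 22 (9.52%) lower in Pax5-KO, against 35.4 and 15.9% for the genes of all bound sites. With TMM scaling 45.5% were higher and 23.9% lower for the Ebf1-KO list, and 48.9 and 16.9% for the Pax5-KO list, against 31.5 and 33.2% and 27.3 and 28.7% for the genes of all bound sites. The median log2 fold change less the shift was 0.23 for the Ebf1-KO list and 0.29 for the Pax5-KO list, and -0.02 and -0.03 for the genes of all bound sites. The rest were lower or did not pass. A nearest gene is a matter of position, and whether a site acts on it was not measured.

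**Figure D5:**
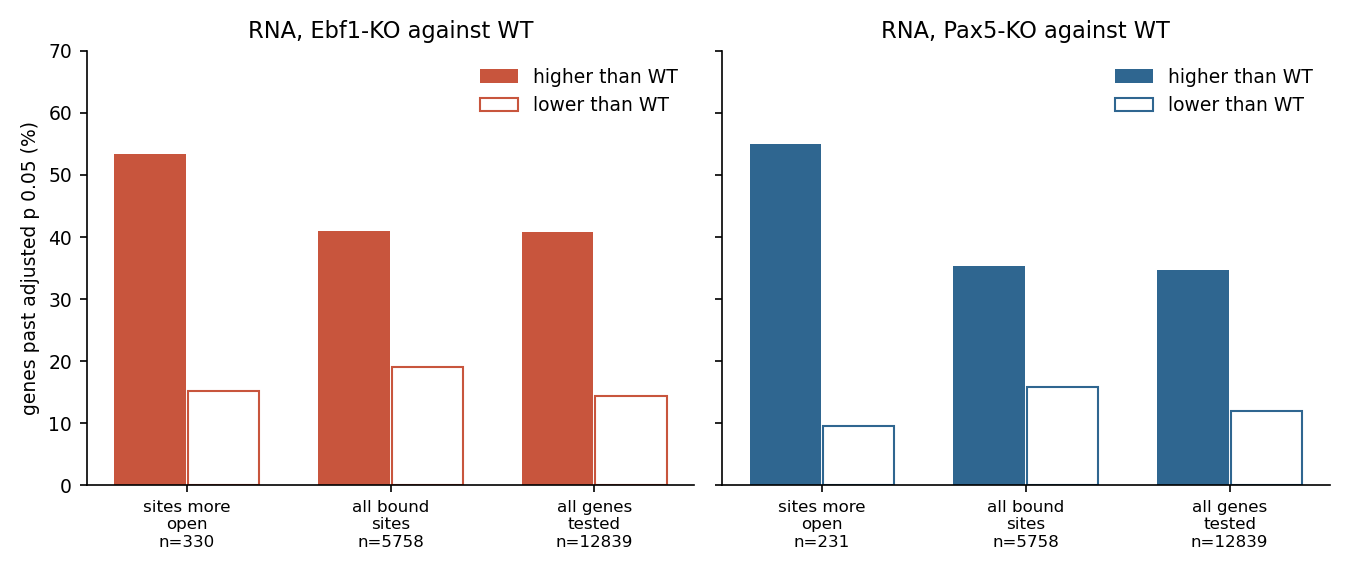
Percent of tested genes called higher (filled) and lower (open) in RNA at an adjusted p under 0.05, in Ebf1-KO (left) and Pax5-KO (right) against WT. The genes nearest to more open sites were called higher in 53.3% (Ebf1-KO) and 55% (Pax5-KO), against 40.8% and 34.7% of all genes tested.

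The shares are given next by distance and class, with no test of the differences. For the Ebf1-KO list 54.3% of genes were higher and 14% lower for sites within 50 kb of the start site, and 50 and 19.1% beyond it. For the Pax5-KO list it was 56.6 and 6.29% within 50 kb and 50 and 20.7% beyond it. EBF1-only sites of the Pax5-KO list had 92 of 152 genes higher, against 35.6% for the genes of all EBF1-only sites. PAX5-only sites of that list had 42.9% of 70 genes higher, against 35.1%. In the Ebf1-KO list the shares were 55.2% of 105 genes for EBF1-only sites and 51.2% of 203 for PAX5-only sites, against 41 and 40.5% for the genes of each class.

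Several named sites had a gene whose RNA rose strongly. Mta3 had 746, 680 and 782 reads per 10 M in Ebf1-KO cells, 299, 295 and 418 in Pax5-KO, and 7.57, 9.51 and 5.39 in WT, a log2 change of 6.16 ± 0.20 (SE, adjusted p = 5.58e-13, limma) in Ebf1-KO cells and 5.05 ± 0.20 (1e-11) in Pax5-KO. Nfatc2 had 177, 223 and 199 in Ebf1-KO cells, 29.6, 30.7 and 30.6 in Pax5-KO, and 0.28, 0.352 and 0.476 in WT, and rose by 6.88 ± 0.19 in Ebf1-KO cells and 4.24 ± 0.19 in Pax5-KO. Egln3 had 123.47, 99.7 and 91.6 in Ebf1-KO cells, 597, 575 and 716 in Pax5-KO, and 0.561, 0.352 and 1.11 in WT, and rose by 5.69 ± 0.21 and 8.30 ± 0.21. Itsn1, an endocytic scaffold, rose by 4.62 ± 0.20 in Ebf1-KO cells and 2.41 ± 0.20 in Pax5-KO, Neurl1b by 3.29 ± 0.19 and 4.27 ± 0.19, Dtnb by 1.24 ± 0.16 and 2.06 ± 0.16, and Rgs1 by 5.87 ± 0.28 and 4.02 ± 0.28. These genes are examples with strong rises, and 40.8% and 34.7% of all genes tested were called higher in Ebf1-KO and Pax5-KO. Mta3, Nfatc2, Egln3, Itsn1 and Dtnb each had a site in both lists. Rgs1 rose also in Pax5-KO, where the ratio of its site was 0.825. Neurl1b rose also in Ebf1-KO, where the ratios of its sites were 1.01 and 1.43.

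Lineage genes mostly rose in RNA, with or without a member site. Of the 6 lists of other lineages, 6 of 6 genes with a member site were called higher in Ebf1-KO, against 58 of 71 tested genes without one (81.7%), and in Pax5-KO 4 of 5 genes with a member site, against 50 of 72 without one (69.4%). These shares give the background of the lists, and the difference was not tested. Flt3 had 2283, 2224 and 2576 in Ebf1-KO cells, 933, 865 and 953 in Pax5-KO, and 9.25, 9.16 and 6.98 in WT, and Ccr9 had 11636, 9772 and 10373 in Ebf1-KO cells, 3611, 3709 and 4198 in Pax5-KO, and 21.03, 14.8 and 16.3 in WT. The log2 change was 7.66 ± 0.14 for Flt3 and 8.87 ± 0.15 for Ccr9 in Ebf1-KO, where the ratios of their sites were 2.07 and 1.75. In Pax5-KO it was 6.33 ± 0.14 and 7.44 ± 0.15, where the ratios were 1.08 and 0.98 and neither site was in the list. Il2rb rose by 8.41 ± 0.28 in Ebf1-KO cells and 4.51 ± 0.28 in Pax5-KO, Runx3 by 2.11 ± 0.22 and 1.37 ± 0.22, Runx2 by 7.43 ± 0.17 and 6.60 ± 0.17, and Pdgfrb by 7.73 ± 0.29 and 3.94 ± 0.29. Hoxa7 RNA was at 0 in all WT libraries and at least 748-fold higher in Ebf1-KO and at least 285-fold higher in Pax5-KO, against a floor of 3 reads over the WT group. The ratio of the Hoxa7 site in Pax5-KO was 0.756, and that of the Runx2 site in Ebf1-KO was 1.22. Both genes thus rose also in the knockout where their site was not in the list. Gata3 rose by 5.39 ± 0.25 in Ebf1-KO cells and 0.72 ± 0.25 in Pax5-KO, and Cebpb by 3.43 ± 0.34 and 2.34 ± 0.34. Prf1, a cytotoxic granule gene whose site was in the Pax5-KO list, rose by 3.02 ± 0.26 in Ebf1-KO, and had -0.3 ± 0.26 in Pax5-KO (adjusted p = 0.958, limma).

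Csf1r RNA was low everywhere, with 1.93, 4.03 and 4.31 in Ebf1-KO cells, 2.85, 4.12 and 3.93 in Pax5-KO, and 1.68, 0.352 and 1.59 in WT. It was called higher in Ebf1-KO too, by 0.71 ± 0.32 (adjusted p = 0.0139, limma; 0.0536 with TMM scaling), where its site was not in the list, and the difference between the knockouts did not pass (-0.15 ± 0.32 in Ebf1-KO over Pax5-KO, adjusted p = 0.859, limma). Its rise of 0.85 ± 0.32 in Pax5-KO (adjusted p = 0.01, limma) did not pass in edgeR (adjusted p = 0.0572) or DESeq2 (adjusted p = 0.111), nor without WT replicate 2 (adjusted p = 0.056, limma).

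At several sites the RNA did not follow. Pim1 RNA was 578, 583 and 618 in Ebf1-KO cells, 504, 595 and 793 in Pax5-KO, and 549, 468 and 490 in WT, with -0.07 ± 0.16 in Ebf1-KO (adjusted p = 0.209, limma) and 0.03 ± 0.16 in Pax5-KO (adjusted p = 0.125, limma). With the replicate number as a block, Pim1 passed in Pax5-KO (adjusted p = 0.0337, limma), and it also passed without Pax5-KO replicate 1 (adjusted p = 0.0269). Cxcr4 fell in both knockouts, by 1.76 ± 0.14 on the log2 scale in Ebf1-KO and by 1.19 ± 0.14 in Pax5-KO, although a distant site was more open in Pax5-KO. Pla2g4c also fell, by 3.59 ± 0.24 on the log2 scale in Ebf1-KO, as did Gm10416, by 1.10 ± 0.24. Sfmbt2, a Polycomb-group gene whose site was in both lists, rose by 1.06 ± 0.15 in Ebf1-KO and fell by 1.71 ± 0.15 in Pax5-KO. Rin3 had -0.06 ± 0.18 in Ebf1-KO (adjusted p = 0.255, limma) and fell by 0.85 ± 0.18 in Pax5-KO (adjusted p = 0.0166, limma), a call that was lost without Pax5-KO replicate 1 (adjusted p = 0.0703) or 2 (adjusted p = 0.0576). Cdh26 was at 0 in all 9 RNA libraries, and Htra4, Itga9, Tex29 and Tmem51os1, the last an antisense gene whose counting strand is not stated, were too low to be tested.

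Cxcl12 RNA was 0, 9.16 and 5.17 in Ebf1-KO cells, 1.14, 19.01 and 3.93 in Pax5-KO, and 2.24, 28.2 and 8.09 in WT, and did not pass in Ebf1-KO (adjusted p = 0.25, limma) although its site, 263 kb away, had a ratio of 2.37. With the replicate block its RNA was lower in Ebf1-KO (adjusted p = 0.000669, limma). The 10 stroma genes other than Pdgfrb, with Cxcl12 among them, had a summed RNA of 20.3, 118 and 59.5 in Ebf1-KO cells, 52.1, 220 and 98.2 in Pax5-KO, and 140, 326 and 224 in WT, with Dcn at 0 in all libraries. Replicate 2 was the highest in each genotype, and the part of OP9 stroma in these values was not tested. Of the hepatocyte list, Hnf4a was 124, 85.0 and 108 in Ebf1-KO cells, 0.285, 0 and 0.112 in Pax5-KO, and 0.28, 0 and 0 in WT, while the other 10 genes summed to 0.352 to 4.94 in any library.

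Between the knockouts, 17.5% of genes were called higher and 13.3% lower in Ebf1-KO than in Pax5-KO (20.5 and 19.6% with TMM scaling), and the median shift was 0.05. At the top-ranked site the RNA difference ran opposite to the difference in signal. Mrgpra1 RNA was 7.98, 5.86 and 5.69 in Ebf1-KO cells, 331, 250 and 314 in Pax5-KO, and 0.561, 0 and 0 in WT. It was lower in Ebf1-KO than in Pax5-KO by a log2 change of -5.37 ± 0.24 (adjusted p = 1.42e-10, limma), while its site was higher in each Ebf1-KO library than in any Pax5-KO library. Mrgpra1, a sensory receptor of the Mas-related family, has near copies in the genome, so its count is uncertain. Map4k3 showed the same contrast, with 1.38, 1.47 and 4.48 in Ebf1-KO cells, 50.4, 61.5 and 51.6 in Pax5-KO, and 2.80, 6.34 and 4.92 in WT. Its change in Ebf1-KO over Pax5-KO was -4.17 ± 0.33 (adjusted p = 6.59e-08, limma), and against WT it was -1.09 ± 0.33 in Ebf1-KO (adjusted p = 0.0527, limma), which passed as lower with the replicate block (adjusted p = 0.0167). Nfatc2 was the other way round, with RNA and site both higher in Ebf1-KO than in Pax5-KO (2.63 ± 0.19, adjusted p = 2.28e-08, limma). Utp6, whose site was high in Pax5-KO, had RNA of 0.27 ± 0.16 above WT in Ebf1-KO cells and 0.58 ± 0.16 in Pax5-KO (adjusted p = 0.00622 and 0.000443, limma), and its change in Ebf1-KO over Pax5-KO was -0.32 ± 0.16 (adjusted p = 0.23, limma; 0.029 with the replicate block).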

How the data were processed

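ATAC and RNA were read in 9 libraries each, 3 per genotype, with genotype and number taken from each title. Per the file headers, the deposited ATAC tables hold the signal per bound site, as tags scaled to 10 M per library, with HOMER's annotation and a ChIP peak score from the authors for each site. Per the file headers, the deposited gene table holds reads over exons, a normalized signal scaled to 10 M mapped reads per library; values of the kind other than these (names, places, distances) were copied as deposited. The submitters' processing notes name Bowtie2, TopHat, HOMER, edgeR and DESeq2, and builds mm10 and GRCm38; their versions were not given in the sources used.

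The members, gene lists, motifs and naming rule were chosen with earlier results of these data known. The 3 site tables (EBF1-only, PAX5-only, both) were stacked. Blank or date-like gene names (606 sites) were replaced by RefSeq's symbol for the deposited transcript, 5 sites had none, and 14134 sites had a gene in the RNA table. Sites named were, per knockout, the 6 of largest ratio with a knockout mean of at least 10, the 6 of highest mean, the highest of each gene list, those of the 4 genes with most sites (ties by summed signal), the 2 on either side of the ratio of 1.5 and, among sites of both lists, the 5 whose smaller ratio was largest; the other list sites (Gata3, Hoxa7, Itgb7, Prf1 and Cebpb) were added after their values were seen, and 1 site next to that ratio is not reported here. Motifs were sought in the central 200 bases of 14372 sites (GRCm38), and 5 sites were not scanned; the comparison with other sites of mean at least 10 was added after the values were seen.

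RNA was tested with limma (trend) on log2(value + 1) in a model of 3 group means over 9 libraries, for genes passing edgeR's filterByExpr on recovered reads, with Benjamini-Hochberg adjustment over 12839 genes, two-sided. Divided by the value of 1 read, 100% of low values were whole to within 0.1 reads, and edgeR's quasi-likelihood test and DESeq2 were run on these reads as alternatives. Depth was 15.6 to 63.6 M exon reads and 15.3 to 38.6 M ATAC tags. Same-numbered RNA libraries deviated together (r of 0.116 to 0.44 over 9 pairs of libraries), so the numbers were taken to pair them and the fit with the number as a block stands beside results it changed. On simulated data for Ebf1-KO over WT over 12839 genes, the fit recovered 42% of genes changed by 1.5 times. It recovered 70.2% at 2 times and 98.4% at 4 times, with 6.25% false calls. The simulation changed only a small part of the genes, with no overall shift and no pairing of libraries. The real data differ in all of these, so the rates may not hold for them. Fits used limma 3.58.1 in R 4.3.3, with edgeR 4.0.16 for TMM factors and its own test and DESeq2 1.42.0. Sequences were read with pysam 0.24.0, tables with pandas 2.3.3 and NumPy 2.4.6 in Python 3.11.15, and plots drawn with matplotlib 3.10.9.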

Additional observations from a re-analysis of the deposited data

How the results depend on the processing

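Scaling was the choice that moved the site counts most. With TMM factors 2905 sites were more open in Ebf1-KO, 2356 in Pax5-KO and 1149 in both, and with equal totals over bound sites 2872, 2950 and 1395, against 492, 348 and 122. A ratio of at least 2 left 254, 175 and 57 sites. A pseudocount of 2 gave 430, 264 and 101, limma in place of the rule 471, 303 and 119, and limma with the replicate block 467, 303 and 118; limma shared 426 and 251 sites with the Ebf1-KO and Pax5-KO lists. Same-numbered ATAC libraries did not deviate together (r of -0.0523 to 0.11), so this block tests only a shared number. Leaving out a library gave 531 to 709 sites in Ebf1-KO, 404 to 525 in Pax5-KO and 118 to 198 in both; without WT replicate 1, which had the fewest tags, 525 and 198 were found, and without WT replicate 3 191 in both. RNA counts of calls stayed within 1.5 times under every setting run, from 6077 to 7635 for Ebf1-KO over WT, 4872 to 6380 for Pax5-KO over WT and 3353 to 4226 for Ebf1-KO over Pax5-KO without a library, and 8783, 8073 and 5622 with the replicate block. Nearest genes called higher numbered 159 to 186 and 108 to 136 without a library, and 200 and 143 with the block. Of the single genes named, Pim1 and Rin3 in Ebf1-KO, at 0.24 and 0.25 before the median shift is taken off, changed sign with TMM scaling (-0.09 and -0.08), edgeR (-0.1 and -0.08) and DESeq2 (-0.09 and -0.07), and passed in none of them. Zcchc6 in Pax5-KO (adjusted p = 0.0366, limma) lost its call with TMM scaling, edgeR, DESeq2, only the groups compared, and without several single libraries. Depth limits the Pax5-KO list most, at a median of 65 tags per site over the Pax5-KO libraries and 28 over WT. The causes of these changes were not tested.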
